A study of Mus musculus with 23 samples.

Results

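The interferon-inducible GTPases of the IRG and GBP families were followed in the small intestine of busulfan-treated mice. The 10 genes were Irgm1, Irgm2, Igtp, Iigp1, Tgtp1 and Tgtp2 of the IRG family and Gbp2, Gbp3, Gbp6 and Gbp7 of the GBP family, out of 19215 genes and transcripts in the table. They were chosen by a readout of these same data: Iigp1, Tgtp1 and Gbp2 rose in Sa vs. A10-FMT over both sets, and the other genes belong to the same families. The differences in Sa vs. A10-FMT are therefore a description of the choice, and no p-value is given for them. All 10 genes passed the filter of a mean of at least 1 FPKM (read fragments scaled by transcript length and by library size) over the libraries.

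In every group the mice were ICR males that had been given busulfan (40 mg/kg). From the next day they were given saline (Sa) or luminal content of the small intestine from donor mice by gavage (FMT, a microbiota transplant). The donors had been dosed by gavage with water (Con-FMT) or with alginate oligosaccharide, a product cut from a seaweed polysaccharide, at 10 mg/kg (A10-FMT) or 100 mg/kg (A100-FMT). The labels split each treatment into set 1 and set 2 without saying what the sets are. The study's methods give busulfan at 3 weeks of age, daily FMT for 1 week and collection at 5 weeks, and whether these times hold for set 2 is not stated. Each treatment had 3 libraries per set, except Sa with 2 in set 1, which gave 23 libraries in 8 groups. Donor material was pooled, so the animals of an FMT group shared an inoculum, and every animal had received busulfan, so that no untreated level can be read from these libraries. Nothing in the labels says which libraries came from separate cages, and p-values measure only the spread between these libraries.

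IRG and GBP proteins are large GTPases that cells make when interferon reaches them. Interferon-gamma acts through the kinases Jak1 and Jak2 and through gamma-activated sites in the promoters of its targets, one of which is the transcription factor Irf1, and Irf1 binds interferon-stimulated response elements. Irgm1, Irgm2 and Igtp (Irgm3) are the regulatory IRG proteins, which sit on the cell's own membranes and hold the effector IRG proteins inactive there. Iigp1 (Irga6), Tgtp1 and Tgtp2 (Irgb6) are effectors that load onto the vacuoles of intracellular parasites and bacteria and break them open. The GBP proteins coat pathogen vacuoles and free bacteria and help to expose bacterial lipopolysaccharide to the inflammasome. In the intestine the epithelium itself responds to interferon and makes these proteins.

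The upstream sequences of the genes are shown because they carry the letters of an interferon response element close to the gene start. RefSeq promoter windows of the GRCm38 build, the build named mm10 in the labels, were at hand for 8 of the 10 genes, with 250 bases before and 50 bases after each gene start. Gbp6 (chr5:105270702-105295871) and Iigp1 had no entry. The letters GAAA, any 2 bases and again GAAA, searched on both strands, stand for the interferon-stimulated response element, and the letters TTCNNNGAA, which read the same on either strand, for the gamma-activated site. Matches are in capitals, and overlapping matches run together. Each sequence reads 5′ to 3′ along the gene's strand, and each lies upstream of the gene start.
Irgm1, chr11:48871429-48871456, minus strand: tttcaaGAAATAGAAACCGAAActgatt
Irgm2, chr11:58214896-58214928, plus strand: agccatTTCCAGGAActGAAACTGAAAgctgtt
Igtp, chr11:58199505-58199537, plus strand: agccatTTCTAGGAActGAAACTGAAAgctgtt
Tgtp1, chr11:48992308-48992340, minus strand: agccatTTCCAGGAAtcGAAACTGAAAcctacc
Tgtp2, chr11:49064267-49064299, minus strand: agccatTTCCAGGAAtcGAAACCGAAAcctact
Gbp2, chr3:142620598-142620619, plus strand: ttttagTTTCACTTTCactgtc
Gbp3, chr3:142559993-142560020, plus strand: acacagTTTCAGTTTCTATTTCccagat
Gbp7, chr3:142530224-142530298, plus strand: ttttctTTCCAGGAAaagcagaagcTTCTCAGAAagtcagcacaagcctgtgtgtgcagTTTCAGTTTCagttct

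All 8 genes with a window held the interferon-stimulated letters, which start between 77 and 24 bases before the gene start, whereas 3.44% of 32851 windows from 27025 genes held them. The gamma-activated letters were found in 5 of the 8 genes, against 8.3% of all windows. In Irgm2, Igtp, Tgtp1 and Tgtp2 both elements lay in the same order with 2 bases between them, and the first 6 bases shown are the same in these genes. In the GBP genes the interferon-stimulated letters lay on the opposite strand, and in Gbp7 they came 25 and 44 bases after its gamma-activated letters. In Irgm1 and Gbp3, overlapping matches shared 4 bases, and no gamma-activated letters stood in the windows of Irgm1, Gbp2 and Gbp3. A second listed start of Gbp3 held neither set of letters. A match of letters is a description of the sequence and not a measured binding site.

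**Figure D1:**
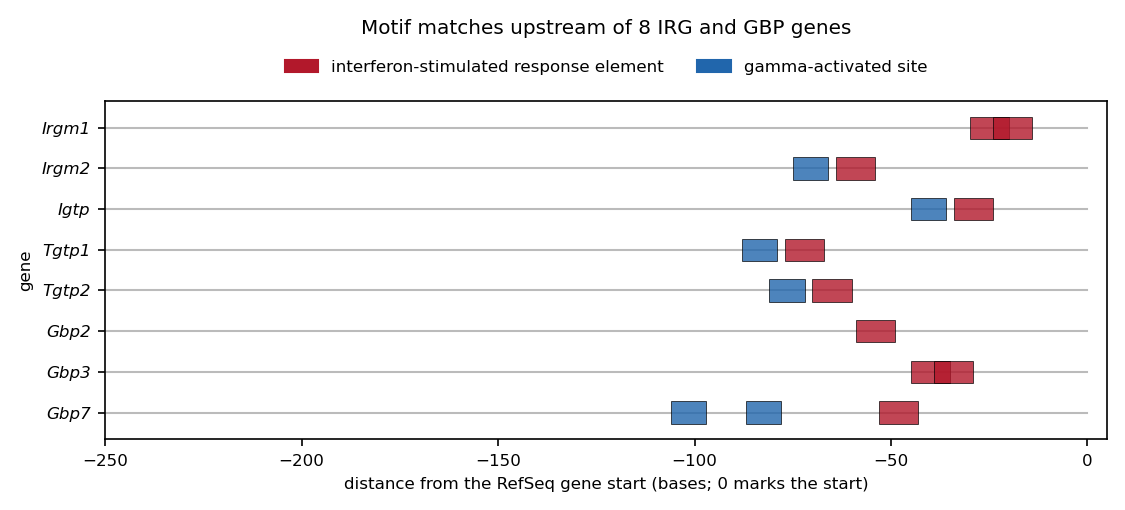
Positions of the motif letters upstream of the 8 genes with a promoter window, in bases from the RefSeq gene start, with the interferon-stimulated response element in red and the gamma-activated site in blue. All 8 genes carry a red box within 77 bases of the start, and a blue box lies 2 bases upstream of it in Irgm2, Igtp, Tgtp1 and Tgtp2.

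A single Sa library stood apart from the others across all genes. The log2 values of Sa set 1 replicate 3 correlated with those of the other libraries with a median Pearson's r of 0.954, whereas the other 22 libraries had medians of 0.979 to 0.985. Its title and its description name different columns of the table, and the column of the title was used. With only 2 Sa libraries in set 1, the counts that rest on Sa are also given without this library or for set 2 alone. The sums of FPKM lay between 556466 and 667957 per library, and read depth is unknown. The epithelial genes Epcam and Krt8 averaged 968 and 2533 FPKM, while the smooth muscle genes Acta2 and Myh11 and the macrophage gene Adgre1 averaged 0.033, 0.011 and 0.006 FPKM. Of 7 smooth muscle markers, 2 averaged at least 1 FPKM, Smtn at 7.66 and Tagln at 1.24. Of 10 macrophage and dendritic cell markers, 2 did so, Cd14 at 59.2 and Itgam at 5.04 FPKM. T and NK cell genes were present at low to moderate levels, with Gzma at 48.9, Gzmb at 21.5, Cd3g at 4.09 and Cd8a at 2.47 FPKM. In bulk tissue, fewer cells of a type and less RNA per cell cannot be told apart.

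The 10 genes covered a wide range of levels. Irgm1 was the highest with a mean of 107 FPKM over the 23 libraries, followed by Igtp at 31.2, Gbp6 at 18.3, Irgm2 at 14.5, Tgtp1 at 11.8, Tgtp2 at 10.8, Iigp1 at 6.11, Gbp3 at 5.39, Gbp7 at 4.09 and Gbp2 at 1.11 FPKM. Irgm1 exceeded Igtp, Igtp exceeded Gbp6, Tgtp2 exceeded Iigp1, Gbp3 exceeded Gbp7 and Gbp7 exceeded Gbp2 in 23 of 23 libraries. The other neighbours changed places between libraries. Gbp6 exceeded Irgm2 in 19, Irgm2 exceeded Tgtp1 in 16, Tgtp1 exceeded Tgtp2 in 14 and Iigp1 exceeded Gbp3 in 13 of 23 libraries. The split between Tgtp1 and Tgtp2 is uncertain, since 89.4% of the 50-base windows of the longest Tgtp1 transcript occur without a mismatch in Tgtp2. Gbp6 is uncertain as well, because 59.7% of its windows occur in transcripts of other genes. Igtp shares 12.3% of its windows with transcripts of its neighbour Irgm2, with which it overlaps in the GENCODE annotation, and Irgm1 shares none with another gene.

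Of the regulatory IRG genes, Irgm1 was lowest in Sa in both sets, and Igtp was lowest in Sa in set 1 and in A100-FMT in set 2. In set 1, Irgm1 stood at 104 and 59.8 FPKM in Sa, at 145, 122 and 114 in Con-FMT, at 126, 118 and 118 in A10-FMT and at 129, 105 and 108 in A100-FMT. In set 2, Irgm1 stood at 79.5, 88.2 and 81.2 FPKM in Sa, at 131, 116 and 108 in Con-FMT, at 113, 105 and 104 in A10-FMT and at 91.2, 94.2 and 100.2 in A100-FMT. Every FMT library thus lay above every Sa library of its set, by a small margin for A100-FMT. Igtp, in set 2, stood at 22.4, 27 and 29.9 FPKM in Sa, at 40.2, 39.2 and 28.5 in Con-FMT, at 36.4, 32.3 and 33.2 in A10-FMT and at 26.4, 21.7 and 25.2 in A100-FMT. A100-FMT overlapped Sa there, and 1 Con-FMT library lay below the highest Sa library. In set 1 the Igtp libraries lay at 15.4 and 24.7 FPKM in Sa and between 26.2 and 41.5 FPKM in the FMT groups, with no overlap.

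Irgm2 followed another order, with its highest and its lowest library both in A10-FMT. In set 1, Irgm2 stood at 15 and 11.2 FPKM in Sa, at 15.3, 14.6 and 17.5 in Con-FMT, at 19.7, 25.1 and 16.9 in A10-FMT and at 18.2, 14.3 and 16.7 in A100-FMT. In set 2 it stood at 10.2, 13.6 and 8.14 FPKM in Sa, at 17.2, 15 and 14 in Con-FMT, at 11.1, 13.1 and 7.52 in A10-FMT and at 11.7, 15.8 and 11.5 in A100-FMT. The A10-FMT libraries were all above Sa in set 1 and mixed with Sa in set 2.

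The effector IRG genes lay above Sa in Con-FMT and A10-FMT. In set 1, Iigp1 stood at 3.97 and 1.37 FPKM in Sa, at 8.95, 5.7 and 6.91 in Con-FMT, at 11.1, 7 and 8.13 in A10-FMT and at 8.69, 4.5 and 5.81 in A100-FMT. In set 2 it stood at 2.5, 4.21 and 3.24 FPKM in Sa, at 12.3, 7.44 and 5.62 in Con-FMT, at 5.66, 7.99 and 7.07 in A10-FMT and at 4.52, 3.6 and 4.26 in A100-FMT. Con-FMT and A10-FMT lay above Sa in each set, while A100-FMT overlapped Sa in set 2. The ratio of mean FPKM to Sa in set 2 was 2.55 for Con-FMT, 2.08 for A10-FMT and 1.24 for A100-FMT.

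Tgtp1 also separated Con-FMT and A10-FMT from Sa in each set. In set 1, Tgtp1 stood at 8.68 and 5.57 FPKM in Sa, at 22, 14.2 and 12.9 in Con-FMT, at 14, 16.6 and 15.6 in A10-FMT and at 15.1, 6.86 and 10.6 in A100-FMT. In set 2 it stood at 6.17, 5.94 and 5.06 FPKM in Sa, at 19.2, 15.3 and 9.14 in Con-FMT, at 11.9, 14.5 and 13 in A10-FMT and at 8.96, 8.13 and 12.9 in A100-FMT. The summed level of Tgtp1 and Tgtp2, which does not depend on how reads were split between them, in set 2 was 12.1 ± 1.07 FPKM for Sa, 28 ± 9.42 for Con-FMT, 24.3 ± 1.73 for A10-FMT and 19.1 ± 2.91 for A100-FMT (SD, n = 3). Set against Sa of the same set, only 1 library of A100-FMT, in set 1, fell within the range of Sa for this sum. In the column of the description, Sa set 1 replicate 3 has a sum of 21.87 FPKM, above 15 and 19.48 FPKM in A100-FMT of set 1. Tgtp2 alone ranged from 4.97 to 18.6 FPKM over all libraries.

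Among the GBP genes, Gbp6 and Gbp7 had their lowest values in Sa set 1 replicate 3. In set 1, Gbp6 stood at 14.5 and 4.84 FPKM in Sa, at 20.8, 16.6 and 21.6 in Con-FMT, at 23, 21.3 and 20.6 in A10-FMT and at 28, 17.5 and 23 in A100-FMT. In set 2 it stood at 13.7, 16.9 and 14.6 FPKM in Sa, at 20.7, 21.1 and 19.2 in Con-FMT, at 19.5, 19 and 17.9 in A10-FMT and at 15.8, 14.4 and 17.1 in A100-FMT. A100-FMT was thus the group with the highest Gbp6 mean in set 1 and overlapped Sa in set 2. Gbp7 stood at 3.17 and 0.69 FPKM in Sa set 1 and at 2.85, 3.23 and 3.33 FPKM in Sa set 2, below all FMT libraries, which ranged from 3.43 to 5.63 FPKM. Gbp3 ranged from 2.27 to 4.57 FPKM in Sa and from 4.59 to 7.11 FPKM in the FMT groups.

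Gbp2 was the lowest of the 10 genes, and its highest group was not the same in the sets. In set 1, Gbp2 stood at 0.77 and 0.53 FPKM in Sa, at 0.8, 0.82 and 1.38 in Con-FMT, at 1.95, 2.08 and 2.03 in A10-FMT and at 1.34, 0.65 and 0.67 in A100-FMT. In set 2 it stood at 0.58, 0.5 and 0.62 FPKM in Sa, at 1.72, 1.69 and 1.37 in Con-FMT, at 0.91, 0.91 and 1.3 in A10-FMT and at 0.97, 0.74 and 1.14 in A100-FMT. The highest group was A10-FMT in set 1 and Con-FMT in set 2, and in each case it lay above every other group of the set.

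**Figure D2:**
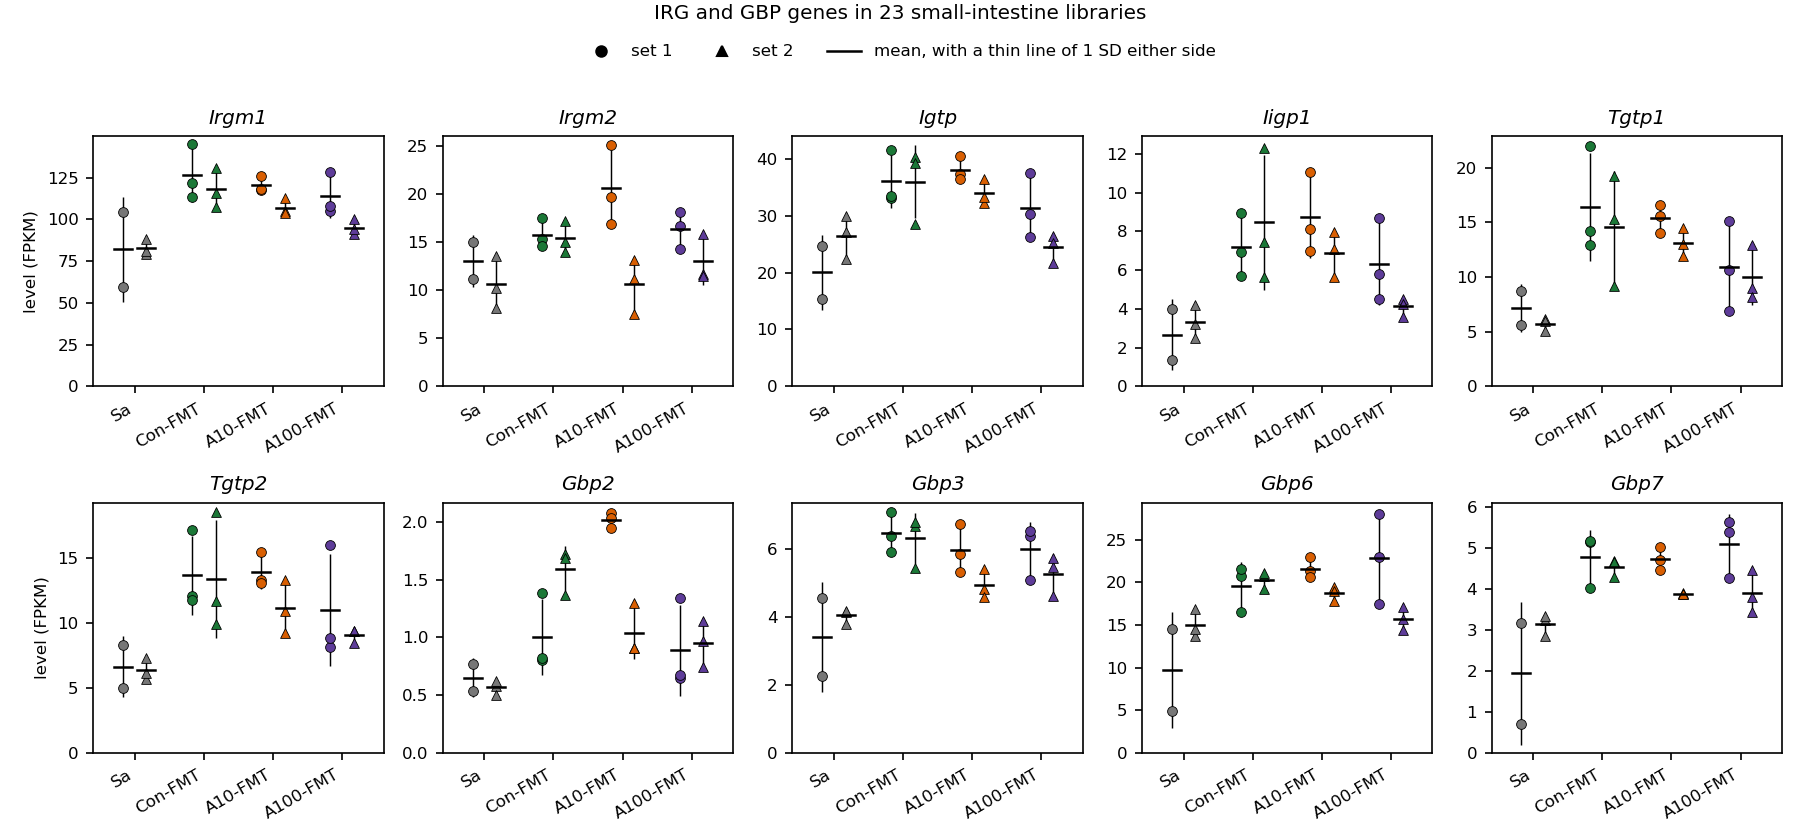
Level of each of the 10 genes in FPKM in the 23 libraries, by treatment, with circles for set 1, triangles for set 2, bars for the group mean and thin lines for 1 SD either side. Sa lies lowest for most genes, Gbp2 is highest in A10-FMT of set 1 and Irgm2 differs between the sets within A10-FMT.

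The question of Sa vs. A10-FMT was how the intestine differed after material from donors given the low dose. On the log2(FPKM + 1) scale, which understates the change of low genes, the 10 genes were higher in A10-FMT by 0.30 to 1.18 over both sets, with a median of 0.66 against 0.0052 for all 11337 genes tested. The values of the genes that drove the choice were 1.18 for Iigp1, 1.05 for Tgtp1 and 0.63 for Gbp2, and those of the genes at the lower end were 0.47 for Gbp3 and 0.30 for Irgm2. In the limma fit, 4 of the 10 had an adjusted p under 0.05, where 0.132% of all genes did. In set 1 it was 10 of 10, where 32% of all genes passed, and in set 2 it was 0 of 10, where 0.423% passed. Just inside the threshold over both sets was Igtp and just outside it was Tgtp2, with log2 differences of 0.64 and 0.86. In set 2 every A10-FMT library lay above every Sa library for 9 of 10, with Irgm2 the exception, and 19.2% of all genes did so. Leaving out any A10-FMT library, Sa set 1 replicate 3 or Sa set 2 replicate 2 or 3 gave 0 of 10 over both sets. Leaving out Sa set 1 replicate 3 gave 2 of 10 in set 1, where 922 of 11354 genes passed. Nothing is read from these counts, because this contrast chose the genes. Beside them, 7 of 10 enterocyte markers passed as higher in set 1. Their sums lay between 13820 and 16424 FPKM in A10-FMT and between 9729 and 10316 FPKM in Sa. In set 2, 0 of these 10 were higher and 0 passed. Of 6 Paneth cell markers, genes of the antimicrobial cells of the crypt, 0 passed in set 1 and 3 passed as higher in set 2. The part of these cell markers in the values was not tested.

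In Sa vs. Con-FMT, which asks what a transplant from donors dosed with water changed, all 10 genes were higher in Con-FMT. The Sa libraries are those of the contrast that chose the genes, so the values are given side by side with it and without p-values for single genes, and the counts are a description. Over both sets Iigp1 was higher by 1.16 ± 0.21 (SE), Tgtp1 by 1.12 ± 0.20, Tgtp2 by 0.94 ± 0.18, Gbp7 by 0.77 ± 0.15, Gbp6 by 0.76 ± 0.17, Gbp3 by 0.67 ± 0.11, Igtp by 0.63 ± 0.12, Irgm1 by 0.59 ± 0.11, Gbp2 by 0.50 ± 0.10 and Irgm2 by 0.39 ± 0.15 on the log2 scale. Apart from Irgm2, all passed the adjusted threshold, which makes 9 of 10 where 0.75% of all genes passed. Without Sa set 1 replicate 3 the differences were 0.90 ± 0.21 for Iigp1, 0.98 ± 0.22 for Tgtp1, 0.78 ± 0.19 for Tgtp2, 0.44 ± 0.08 for Gbp7, 0.41 ± 0.11 for Gbp6, 0.48 ± 0.09 for Gbp3, 0.47 ± 0.12 for Igtp, 0.39 ± 0.08 for Irgm1, 0.44 ± 0.12 for Gbp2 and 0.29 ± 0.17 for Irgm2. Gbp6 and Gbp7, at 0.42 each in set 2, moved the most. Without this library 3 of 10 passed, where 40 of 11354 genes did. With array quality weights 0 of 10 passed, as did 0 of 11337 genes. With only the compared groups in the fit 0 of 10 passed, where 15 of 11337 genes did. Leaving out Sa set 2 replicate 1, Con-FMT set 2 replicate 1 or Con-FMT set 2 replicate 2 left 5 of 10. The share of all genes was not set beside this count.

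Set 2 does not hold that library, but its Sa libraries also took part in the choice of the genes. In set 2, every Con-FMT library lay above every Sa library for 9 of the 10 genes, where 6.3% of all genes behaved in this way, and Igtp was the exception. In each of the sets separately it was 8 of 10, where 1.19% of all genes did. One of these, Gbp2, stands at 1.21 FPKM for Sa set 1 replicate 3 in the column of the description. That is above 0.8 and 0.82 FPKM in Con-FMT of set 1. In the fit, 0 of 10 passed in set 2, where 0.0353% of all genes passed. There 8 of 10 and 651 of 11337 genes had an unadjusted p under 0.05. Array quality weights gave 5 of 10, where 111 of 11337 genes passed. In set 1, 8 of 10 passed, where 26.9% of all genes passed. Leaving out Con-FMT set 1 replicate 1 or Con-FMT set 1 replicate 3 gave 0 of 10. The share of all genes was not set beside this count, so it is not read as a result about the GTPases. Without Sa set 1 replicate 3 a single Sa library is left in set 1, and no count is given. Beside these differences, the summed T and NK cell markers ranged from 74.3 to 218 FPKM in Con-FMT and from 55.7 to 100.3 FPKM in Sa of set 2, and from 57.2 to 132 FPKM in Con-FMT and from 75.4 to 84.1 FPKM in Sa of set 1. The 6 Paneth cell markers summed to between 9145 and 10295 FPKM in Con-FMT and between 4786 and 7697 FPKM in Sa of set 2, with no overlap. In set 1 they summed to between 12118 and 16422 FPKM in Con-FMT and between 13738 and 15998 FPKM in Sa. In set 2 all 6 were higher in Con-FMT and 0 passed. The part of these cell markers in the result was not tested.

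Sa vs. A100-FMT gave the smallest differences of the 3 transplants for most genes. Its Sa libraries are again those of the contrast that chose the genes, so its values and counts are a description. The same holds for the order of the transplants, because the genes were chosen for a rise in A10-FMT. Over both sets the 10 genes were higher in A100-FMT by 0.24 to 0.71, and Gbp3 (0.51 ± 0.11) and Gbp7 (0.71 ± 0.15) passed, which is 2 of 10 where 0.891% of all genes passed. In set 1, 6 of 10 passed, where 35.2% of all genes passed, and 0 of 10 did without Sa set 1 replicate 3. In set 2, 0 of 10 passed, where 0.0353% of all genes passed, and the log2 differences ran from -0.11 for Igtp to 0.69 for Tgtp1. There 3 of 10 and 1606 of 11337 genes had an unadjusted p under 0.05. Every A100-FMT library lay above every Sa library of set 2 for 6 of 10, where 18.4% of all genes did so. The call over both sets was not stable to single libraries. Leaving out Sa set 1 replicate 1 gave 9 of 10, where 5748 of 11339 genes passed. Without Con-FMT set 1 replicate 2 or Con-FMT set 2 replicate 3 the count moved by less than 1.5 times. The same held without A10-FMT set 2 replicate 1 or A100-FMT set 2 replicate 1. Leaving out any other library gave 0 of 10. In set 1, leaving out A100-FMT set 1 replicate 1 gave 3 of 10.

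**Figure D3:**
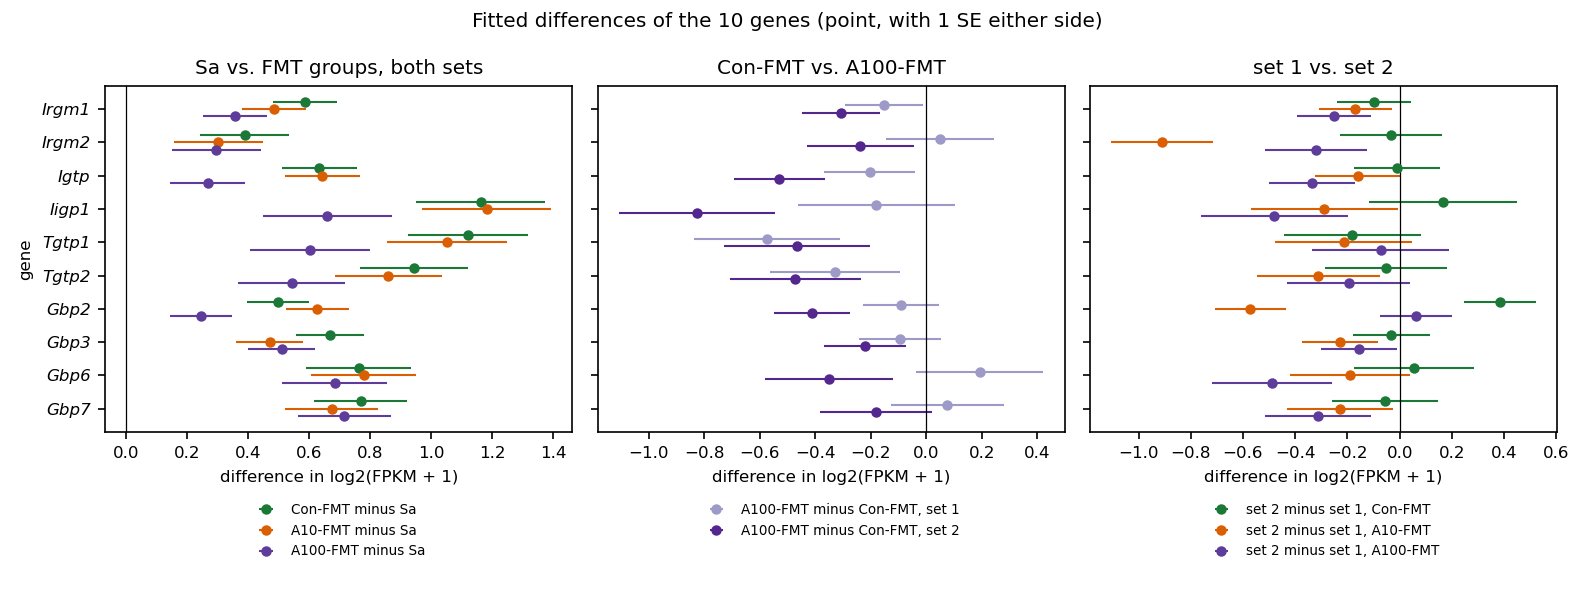
Fitted differences of the 10 genes in log2(FPKM + 1), with lines of 1 SE either side, for the FMT groups against Sa over both sets (left), for A100-FMT against Con-FMT in each set (middle) and for set 2 against set 1 within each FMT group (right). All differences from Sa are above 0, those of A100-FMT from Con-FMT in set 2 are all below 0, and Irgm2 and Gbp2 in A10-FMT stand farthest to the left in the right panel.

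Con-FMT vs. A100-FMT used no library of the contrast that chose the genes, and asks whether feeding the donors the high dose changed the transplant's outcome. Over both sets all 10 genes were lower in A100-FMT, with log2 differences from -0.05 for Gbp7 to -0.52 for Tgtp1 and a median of -0.24 against 0.02 for all genes. None of the 10 passed the adjusted threshold in the limma fit, where 0.123% of all genes passed. At an unadjusted p under 0.05 were 6 of the 10 and 1097 of 11337 genes. The largest were Tgtp1 (-0.52 ± 0.19, adjusted p = 0.349), Iigp1 (-0.50 ± 0.20, adjusted p = 0.415), Tgtp2 (-0.40 ± 0.17, adjusted p = 0.431) and Igtp (-0.37 ± 0.12, adjusted p = 0.271). Across the alternatives the adjusted p of Igtp ran from 0.0645 to 0.532.

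In set 2 the differences were larger in number, but not by test. All 10 genes were lower in A100-FMT, with log2 differences from -0.18 for Gbp7 to -0.83 for Iigp1, and the ratio of mean FPKM in A100-FMT to Con-FMT was 0.488 for Iigp1, 0.679 for Igtp and 0.677 for Tgtp2. Again 0 of 10 passed, as did 0% of all genes, although 4 of 10 and 1270 of 11337 genes had an unadjusted p under 0.05. Array quality weights called 1 of the 10, where 546 of 11337 genes passed. Every Con-FMT library of set 2 lay above every A100-FMT library for 6 of 10 (Iigp1, Irgm1, Igtp, Tgtp2, Gbp2 and Gbp6), where 6.49% of all genes did so. In set 1 this held for 0 of 10, 7 of the 10 were lower and 3 higher in A100-FMT, and 0 of 10 passed, where 0.406% of all genes passed. The difference between the sets was tested itself and passed for 0 of 10, as for 0% of all genes, so that the sets cannot be said to differ. Summed T and NK cell markers ranged from 37.6 to 94.9 FPKM in A100-FMT and from 74.3 to 218 FPKM in Con-FMT of set 2. All 6 Paneth cell markers were lower in A100-FMT over both sets, with a median log2 difference of -0.79, and 2 passed. In set 1 all 6 were lower and 4 passed. Their sums there lay between 5451 and 8341 FPKM in A100-FMT and between 12118 and 16422 FPKM in Con-FMT. In set 2 all 6 were lower and 0 passed. The sums in set 2 lay between 6760 and 8952 FPKM in A100-FMT and between 9145 and 10295 FPKM in Con-FMT. The part of these cell markers in the result was not tested.

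In Con-FMT vs. A10-FMT none of the 10 passed over both sets. The log2 differences of the 10 genes ran from -0.20 for Gbp3 to 0.13 for Gbp2, and 0 of 10 passed, as did 0% of all genes, with 0 of the 10 and 697 of all genes at an unadjusted p under 0.05. In set 1 the log2 difference was 0.61 ± 0.14 for Gbp2, the only 1 of 10 past the threshold where 16.7% of all genes passed. Gbp2 was chosen for its level in these A10-FMT libraries, so this value is a description. In set 2, 0 of 10 passed, where 0.379% of all genes passed, and all 10 were lower in A10-FMT, with log2 differences of -0.07 to -0.53.

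Within A10-FMT, Gbp2 and Irgm2 differed between the sets. The choice did not use this contrast, but it used these A10-FMT libraries, so the values of Gbp2 are a description. Irgm2 (log2 difference -0.91 ± 0.19, adjusted p = 0.00226) and Gbp2 (-0.57 ± 0.14) were lower in set 2, with no overlap between the libraries of the sets. These were 2 of 10 where 30.4% of all genes passed, a share that does not stand out from all genes, and the median of all genes was itself higher by 0.12. Both genes passed in every alternative that tested them. The other 8 had log2 differences of -0.16 to -0.31 and did not pass. The same contrast passed for 0 of 10 in Con-FMT, where 0.00882% of all genes passed. There 1 of the 10, Gbp2 at 0.38, and 674 of 11337 genes had an unadjusted p under 0.05. The contrast passed for 0 of 10 in A100-FMT, where 0% of all genes passed. There 1 of the 10, Gbp6 at -0.49, and 1641 of 11337 genes had an unadjusted p under 0.05. In Sa the contrast passed for Gbp6 (0.75 ± 0.26) and Gbp7 (0.64 ± 0.23), 2 of 10 where 38.1% of all genes passed. It passed for 0 of 10 without Sa set 1 replicate 3 or Sa set 2 replicate 2 or 3. Without Sa set 1 replicate 1 it passed for 6 of 10, where 7043 of 11339 genes passed. Without Sa set 2 replicate 1 it passed for 1.

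Tested as a difference of differences, the step from Con-FMT to A10-FMT changed with the set for Gbp2 (-0.96 ± 0.19) and Irgm2 (-0.88 ± 0.27, adjusted p = 0.031). These were 2 of 10 where 20.8% of all genes passed, a share that does not stand out from all genes. The value of Gbp2 is again a description, because these A10-FMT libraries entered its choice. Gbp2 passed in all 32 alternatives that tested it, and Irgm2 in 26 of 33. Irgm2 lost the call without Con-FMT set 1 replicate 1 or 2, Con-FMT set 2 replicate 1 or 2, A10-FMT set 1 replicate 2 or A10-FMT set 2 replicate 3, and with all genes above 0 in the fit. The step from Sa to A100-FMT changed with the set for Gbp6, Gbp7 and Igtp, 3 of 10 where 26.8% passed. This share does not stand out from all genes either. It changed for 0 of 10 without Sa set 1 replicate 3, where 464 of 11354 genes passed. It changed for 6 without Sa set 1 replicate 1, where 6664 of 11339 genes passed. It changed for 1 without A100-FMT set 1 replicate 1, A100-FMT set 2 replicate 2 or Sa set 2 replicate 2 or 3. The step from Sa to Con-FMT changed for 0 of 10, where 0.00882% passed. At an unadjusted p under 0.05 were 2 of the 10 and 3893 of 11337 genes. Without Sa set 1 replicate 1 this step changed for 5 of 10, where 6247 of 11339 genes passed.

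Markers of other cell types also differed between the A10-FMT sets. The summed T and NK cell markers ranged from 67.9 to 125 FPKM in set 1 and from 41 to 49.1 FPKM in set 2. The 10 enterocyte markers summed to between 13820 and 16424 FPKM in set 1 and between 7658 and 9498 FPKM in set 2. Of these 10, 6 passed as lower and 1 as higher, where 30.4% of all genes passed. The part of these markers in the values of Gbp2 and Irgm2 was not tested. Paneth cell markers overlapped between the A10-FMT sets, at 9541 to 15586 FPKM and 9573 to 13957 FPKM.

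The rest of the pathway was read from lists chosen with earlier results of these data known, in the order from ligand to target. Interferon transcripts were close to 0 in bulk tissue. Ifng averaged 0.03 FPKM and was listed at 0 in 10 of 23 libraries, and the epithelial interferons Ifnl2 and Ifnl3 averaged 0.096 and 0.084 FPKM. Of the ligand list only Il18, Il15 and Tnf were high enough to test, and 0 of these 3 passed in Sa vs. Con-FMT over both sets, with Il18 at -0.03 ± 0.18, Il15 at 0.05 ± 0.10 and Tnf at -0.08 ± 0.13. The receptor chains were present in all libraries, with Ifngr2 at 82.1, Ifngr1 at 68.5 and Il10rb, which pairs with the interferon-lambda receptor, at 50 FPKM. Of the 6 receptor genes 0 passed, and the log2 differences of Ifngr2, Ifngr1 and Il10rb were -0.04 ± 0.06, -0.11 ± 0.05 and 0.03 ± 0.05.

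Of 12 kinases and transcription factors, 10 were higher in Con-FMT than in Sa over both sets. Where 0.75% of all genes passed, 2 of the 12 did, both higher. These were Stat2 (0.52 ± 0.08) and Irf7 (0.36 ± 0.08), the last a factor that amplifies type I interferon. Irf1 and Irf8, the other abundant factors, stood at 0.09 ± 0.05 and 0.11 ± 0.07 and did not pass. Of 9 inhibitors of the pathway, Usp18, which blocks the type I interferon receptor, was higher by 0.76 ± 0.11, while Pias4 and Ptpn2 stood at -0.07 ± 0.07 and 0.17 ± 0.10. Without Sa set 1 replicate 3, Stat2 (0.36 ± 0.06) and Usp18 (0.60 ± 0.11) passed and Irf7 (0.32 ± 0.09) did not, and in set 2 alone 0 of either list passed. The Sa libraries that chose the GTPases enter these values too.

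The targets were counted as antiviral genes, which all interferons induce, and as interferon-gamma targets. All 15 antiviral genes tested were higher in Con-FMT than in Sa over both sets, and 9 passed, where 0.75% of all genes passed. The median log2 difference of the 15 was 0.53 against 0.02 for all genes. Examples are Ifit2 (1.45 ± 0.19), Rsad2 (0.92 ± 0.19), Isg15 (0.65 ± 0.12) and Oasl2 (0.46 ± 0.08), and Oas1a stood at 0.22 ± 0.07. Of 13 interferon-gamma targets tested, 7 were higher, with a median of 0.0017. Of the 13, 1 passed, Nlrc5 (0.56 ± 0.11), the activator of MHC class I genes. The proteasome genes of antigen processing Psme2, Psme1 and Psmb10 stood at -0.08 ± 0.07, -0.05 ± 0.06 and -0.06 ± 0.08. Without Sa set 1 replicate 3, 5 of the 15 antiviral genes passed, with a median of 0.37, and 0 of the 13 interferon-gamma targets, with a median of 0.09. In set 2 alone 0 of either list passed, with medians of 0.40 and 0.11. Of the genes named, Ifit2 (1.13 ± 0.17) and Oasl2 (0.32 ± 0.06) passed without that library, while Rsad2 (0.64 ± 0.18), Isg15 (0.58 ± 0.14) and Nlrc5 (0.43 ± 0.11) did not. The difference between these lists was not tested.

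Other genes of the same families were also higher. Of 7 further IRG and GBP genes tested, 6 were higher in Con-FMT than in Sa over both sets, and 4 passed. The 4 were Gm12250 (Irgb10, 0.65 ± 0.11), Gbp9 (0.69 ± 0.12), Gbp4 (0.66 ± 0.12) and Gm5431 (0.59 ± 0.14), while Irgq, an IRG-like gene, stood at -0.03 ± 0.05. Without Sa set 1 replicate 3, 2 of the 7 passed, Gm12250 (0.44 ± 0.08) and Gbp9 (0.50 ± 0.10), and in set 2 alone 0 did. Of 11 autophagy conjugation genes, whose products help to place the IRG proteins on vacuoles, 0 passed, with Sqstm1 at -0.0044 ± 0.052, Gabarapl2 at -0.14 ± 0.04 and Map1lc3b at -0.16 ± 0.05. Of 5 genes of the non-canonical inflammasome tested, which acts after GBP proteins reach bacteria, 0 passed, with Casp1 at 0.21 ± 0.10, Gsdmd at 0.12 ± 0.08 and Pycard at -0.15 ± 0.07. In Con-FMT vs. A100-FMT over both sets, 0 genes passed in any of these 9 lists.

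Between the A10-FMT sets, all 15 antiviral genes were lower in set 2, with a median of -0.43 against 0.12 for all genes. Of these 15, 8 passed, where 30.4% of all genes passed. The log2 difference of Isg15 was -0.73 ± 0.16 (adjusted p = 0.00234) and that of Oasl2 -0.43 ± 0.11 (adjusted p = 0.00661). Of the 5 inflammasome genes 1 passed as lower, the pore-forming Gsdmd (-0.83 ± 0.10, adjusted p = 4.36e-05). Of these 5, 3 were higher in set 2, with a median of 0.03. Usp18 stood at -0.74 ± 0.15 (adjusted p = 0.00184). Of the 12 kinases and transcription factors, 3 passed as lower, Irf7 (-0.49 ± 0.11, adjusted p = 0.00272), Batf2 (-0.44 ± 0.09, adjusted p = 0.00135) and Stat3 (-0.18 ± 0.06, adjusted p = 0.0413). Irf2 passed as higher (0.23 ± 0.05, adjusted p = 0.00437). Of the 9 inhibitors, Socs1 passed as lower as well (-0.43 ± 0.13, adjusted p = 0.0172). Of 13 interferon-gamma targets 1 passed as lower, Ido1, a tryptophan-degrading enzyme (-1.48 ± 0.20, adjusted p = 6.69e-05). The passing shares of the factors, the inhibitors and the interferon-gamma targets do not stand out from that of all genes. Of the 6 receptor genes 0 passed. Of the 3 ligand genes tested 1 passed as higher, and of the 7 further IRG and GBP genes 1 passed as lower. Of the 11 autophagy genes 1 passed as higher and 1 as lower. Ifngr1, Ifngr2 and Irf1 stood at 0.03 ± 0.06, 0.01 ± 0.07 and 0.01 ± 0.07 in the same contrast.

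The 10 genes varied together over the libraries. Pearson's r between pairs ran from 0.41 to 0.97 with a median of 0.77 over 45 pairs and 23 libraries, and from 0.38 to 0.94 with a median of 0.71 without Sa set 1 replicate 3. Gbp6 and Gbp7 were the closest pair, and Irgm2 was the least like the others, with r of 0.41 to 0.60. The libraries share their treatments, so these values are descriptions and carry no p-value. Against the mean of the 10 centred log2 values, Gm12250 (Irgb10), an IRG gene outside the 10, had an r of 0.95 (0.91 without Sa set 1 replicate 3, 0.95 in set 1 and 0.95 in set 2). It was followed among the genes with a symbol by Mlkl, the executor of necroptosis (0.93), Ifit2 (0.90), the nucleotide hydrolase Samhd1 (0.88), Parp12 (0.86), Gbp4 (0.86) and Usp18 (0.84). The other 3 of the 10 most alike were unnamed transcripts of the table. The median r of all other tested genes was 0.0069.

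In set 1, Gm12250 stood at 24.7 ± 10.2 FPKM for Sa (SD, n = 2), 42.6 ± 5.23 for Con-FMT (n = 3), 38.1 ± 0.304 for A10-FMT and 36.6 ± 4.09 for A100-FMT. In set 2 it stood at 26.3 ± 1.04 FPKM for Sa, 37.2 ± 4.14 for Con-FMT, 33.0 ± 2.30 for A10-FMT and 30.1 ± 3 for A100-FMT. The order of the group means was the same in both sets for Gm12250, whereas the mean of the GTPases was highest in A10-FMT in set 1 and in Con-FMT in set 2.

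**Figure D4:**
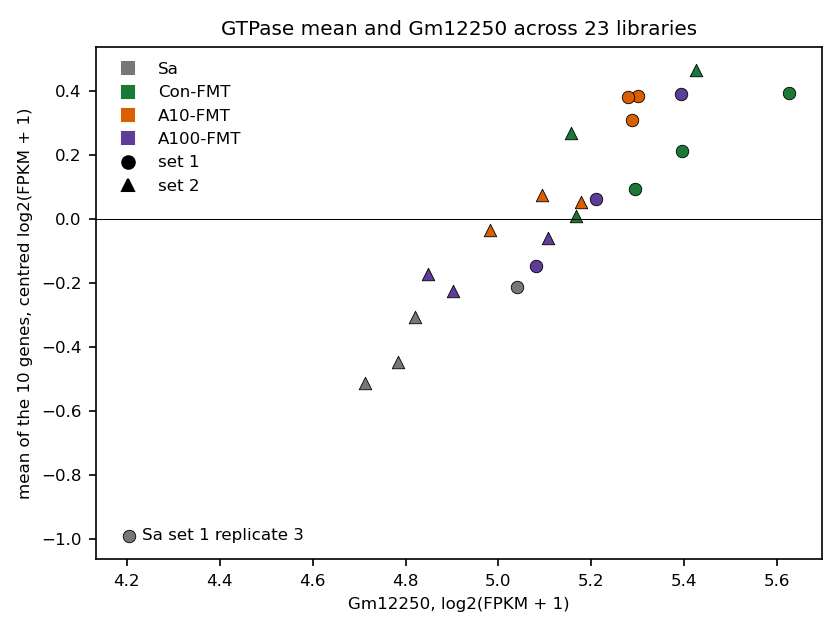
Mean of the 10 genes in centred log2(FPKM + 1) against Gm12250 in log2(FPKM + 1), 1 point per library, coloured by treatment with circles for set 1 and triangles for set 2. The Sa libraries all lie below 0 on the vertical axis and the Con-FMT libraries all above it, and r over the 23 libraries is 0.95.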

How the data were processed

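RNA of the small intestine had been sequenced, and the authors deposited 1 table of FPKM values with 2 decimals for 19215 genes and transcripts. The labels name the build mm10. The aligner and the counter are not given in the sources used here, and whether counting used strand is not stated. Depth is unknown: only 9 genes showed single-read steps, too few to set the depth of a library, so the precision rests on the replicates alone.

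Columns were assigned to samples by their titles. NCBI Gene IDs were matched to RefSeq symbols, for 17725 of 17842 IDs. The 11337 genes that averaged 1 FPKM or more in the 23 libraries were taken as log2(FPKM + 1) and fitted with limma 3.58.1 in R 4.3.3, with a mean for each of 8 groups, a mean-variance trend and Benjamini-Hochberg adjustment over all genes tested, with 0.05 as the threshold. Contrasts over both sets averaged the sets. Each SE comes from this fit. The script was tested on simulated data. The alternatives were another pseudocount (0.1), other filters, quantile normalization, trimmed-mean scaling, array quality weights, a fit of the compared groups alone, a replicate block, the column of the description, Tgtp1 and Tgtp2 summed, and leaving out each library. For the pathway lists, the fit without Sa set 1 replicate 3 and set 2 alone were added after seeing the data. The replicate numbers did not pair the libraries: deviations from the group means of same-numbered libraries of a set correlated at -0.352 to 0.319 over 33 pairs (median 0.002), and those of other pairs at -0.352 to 0.371. Exact 50-base windows were compared between GENCODE M21 transcripts. Figures were drawn with matplotlib 3.10.9. The named genes were the 10 GTPases, the 3 most abundant genes of each pathway list, genes of a list called in Con-FMT vs. A100-FMT (none was), and the 10 genes most alike to the mean of the GTPases. Further genes with values in the text (Stat2, Stat3, Irf2, Batf2, Socs1, Ido1, Nlrc5, Ifit2, Rsad2, Gbp4, Gbp9, Gm12250) were chosen after their values were seen or as most alike. The members and lists were chosen with earlier results of these data known, and they support no result independently. Some genes are not reported here and were left out of the lists and of the ranking by likeness.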

Additional observations from a re-analysis of the deposited data

Results flagged for a closer look

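Among 45 named genes, the steps between treatments were set against each other in the 2 sets by an interaction term in the limma fit. Of these differences, 20 passed an adjusted p of 0.05, 5 of them in the GTPases. The 5 were 2 of 10 for Con-FMT vs. A10-FMT, where 20.8% of all genes passed, and 3 of 10 for Sa vs. A100-FMT, where 26.8% passed. Neither share stands out from that of all genes. For Con-FMT vs. A10-FMT the step was lower in set 2 for Gbp2 (-0.96) and Irgm2 (-0.88), and also for Gsdmd (-1.16), Isg15 (-0.81), Usp18 (-0.73), Irf7 (-0.50), Parp12 (-0.32) and an unnamed transcript of the most alike genes (-0.41). In the same contrast 20.8% of all genes passed.

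For Sa vs. A100-FMT the step was lower in set 2 for Gbp6 (-1.24), Gbp7 (-0.95) and Igtp (-0.75), and also for Gm5431 (-1.05), Casp1 (-0.65), Oasl2 (-0.58), Gsdmd (-0.51), Samhd1 (-0.47) and Parp12 (-0.42). It was higher in set 2 for Pycard (0.59), Psme1 (0.48) and Pias4 (0.42). In this contrast 26.8% of all genes passed, and none of the 10 GTPases passed without Sa set 1 replicate 3.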

How the results depend on the processing

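All counts here are GTPases passing, of 10. The share of all genes passing also changed with the setting. With array quality weights, 0, 1771 and 0 of 11337 genes passed for Sa vs. A10-FMT in set 1, set 2 and both sets. For Sa vs. Con-FMT it was 0, 111 and 0, and for Sa vs. A100-FMT 0, 1450 and 0. With only the compared groups in the fit, 4351 passed between the sets in A10-FMT and 154 for Sa vs. A10-FMT in set 2. Beside the other counts the share is not given, and no count is read as a result about the GTPases. With only the compared groups in the fit the counts became, for Sa vs. A10-FMT, 0 (set 1), 2 (set 2) and 1 (both sets); for Sa vs. Con-FMT 0 in set 1 and 0 over both; for Sa vs. A100-FMT 0 in set 1 and 0 over both; between the sets 0 in Sa and 5 in A10-FMT; and 0 for the interaction of Sa vs. A100-FMT with set. Array quality weights gave 0, 5 and 0 for Sa vs. A10-FMT in set 1, set 2 and both sets, 0, 5 and 0 for Sa vs. Con-FMT, and 0, 1 and 0 for Sa vs. A100-FMT. They gave 1 for Con-FMT vs. A10-FMT and 1 for Con-FMT vs. A100-FMT in set 2, 0 between the sets in Sa, 4 in A100-FMT and 0 for the interaction of Sa vs. A100-FMT. The column of the description gave 2 and 7 for Sa vs. A10-FMT in set 2 and over both sets, 2 for Sa vs. Con-FMT and 3 for Sa vs. A100-FMT in set 1, 0 between the sets in Sa, 1 in A100-FMT and 1 for the interaction of Sa vs. A100-FMT. Testing all genes above 0 gave 1 for Sa vs. A10-FMT and 0 for Sa vs. A100-FMT over both sets, 0 between the sets in Sa and 1 for each interaction that had passed. A minimum mean of 5 FPKM, which drops Gbp2 and Gbp7, gave 1 for Sa vs. A100-FMT over both sets, 0 for Con-FMT vs. A10-FMT in set 1, 1 between the sets in Sa, 1 in A10-FMT and 1 for the interaction of Con-FMT vs. A10-FMT. Quantile normalization gave 1 for Sa vs. Con-FMT in set 2, 1 for Sa vs. A100-FMT over both sets and 0 between the sets in Sa, and trimmed-mean scaling gave 0 for Sa vs. A100-FMT over both sets. With the replicate block, Sa vs. A10-FMT over both sets gave 7, Sa vs. A100-FMT over both sets 0, the sets in Sa 0 and the sets in A10-FMT 4, and no other count moved by over 1.5 times.

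Leaving out single libraries gave, for set 1, set 2 and both sets, 2 to 10, 0 to 2 and 0 to 9 for Sa vs. A10-FMT, 0 to 8, 0 to 2 and 3 to 10 for Sa vs. Con-FMT, and 0 to 7, 0 to 0 and 0 to 9 for Sa vs. A100-FMT. It gave 0 to 6 between the sets in Sa, 0 to 1 in A100-FMT, and for the interactions 0 to 5 (Sa vs. Con-FMT), 0 to 6 (Sa vs. A100-FMT) and 1 to 2 (Con-FMT vs. A10-FMT). In the contrasts of Sa over both sets the lowest counts came without Sa set 1 replicate 3, in part shared with other libraries, and the highest without Sa set 1 replicate 1. Without Sa set 1 replicate 1 over both sets, 5503 of 11339 genes passed for A10-FMT, 5893 for Con-FMT and 5748 for A100-FMT. In set 2 leaving out either of these libraries gave 2 for Sa vs. A10-FMT and for Sa vs. Con-FMT. Gbp6 in Con-FMT vs. A100-FMT over both sets ran from -0.16 without A100-FMT set 1 replicate 1 to 0.0064 without A100-FMT set 1 replicate 2, and Gbp7 between the sets in Sa from -0.013 without Sa set 1 replicate 3 to 1.29 without Sa set 1 replicate 1. The causes were not tested, apart from the genes a filter drops. In Con-FMT vs. A100-FMT over both sets 0 of 10 passed under every alternative that was run. For the lists in Sa vs. Con-FMT over both sets, the genes passing fell without Sa set 1 replicate 3, a setting added after seeing the data, to 2 of 7 family genes, 1 of 12 factors, 0 of 13 interferon-gamma targets and 5 of 15 antiviral genes, and stayed at 1 of 9 inhibitors, and in set 2 alone 0 passed in each of these lists.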
